A study of Mus musculus with 6 samples.

Results

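Homer1 is the gene of a postsynaptic scaffold protein of neurons, and its RNA was followed here along the transcript at single cytosines. Its members were all cytosines of the reference genome, on the sense strand and called by the caller, that the deposited lists of RNA bisulfite sequencing (RNA BS-seq) assign to Homer1. There were 1384 such positions of 5240657 cytosine positions in the whole series, and Homer1 was 1 of 15994 genes. They were divided by the transcript annotation into a 5′ part (exons 1 to 5, upstream of the point where short and long forms part), the own ends of the short forms, and the downstream exons of the long form.

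The cells were cortical neurons of wild-type C57BL/6 mouse embryos at E16.5 (embryonic age in days), pooled from males and females and grown for 7 days in culture. All cultures, the control included, had been silenced overnight with 1 µM tetrodotoxin (TTX), which blocks sodium channels, and 100 µM DL-AP5, which blocks NMDA receptors. They were then depolarized with 55 mM KCl for 0, 2 or 6 h. Each of the 3 groups had 2 biological replicates, which gave 6 libraries. Bisulfite turns unmethylated cytosine into uracil, so the level of a cytosine is the percentage of its reads that stay unconverted, the readout of 5-methylcytosine (m5C). Dissociated cultures lack the input that neurons receive in the intact cortex, and bulk RNA cannot tell fewer cells with a transcript from less of it per cell.

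Homer proteins carry an N-terminal EVH1 domain that binds proline-rich motifs in metabotropic glutamate receptors, inositol trisphosphate receptors and Shank scaffolds. Long forms also carry a C-terminal coiled coil through which they join to each other and so tie these partners together at the postsynaptic density. The short forms end early and lack the coiled coil. The best known of them, Homer1a, is an immediate early gene product of active neurons that competes with the long forms, and a second short form of the same kind is known as Ania-3.

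The annotation (GENCODE M21 on GRCm38) places Homer1 at chr13:93299635-93405129 on the plus strand. The 5′ part consists of exons 1 to 5 and holds 586 cytosines, of which exon 1 (chr13:93303757-93305302), mostly 5′ UTR, holds 467. In the Homer1a-type transcript, exon 5 reads on past its splice site into intron 5 for 4383 nt (chr13:93356080-93360462), a stretch with 692 cytosines. The Ania-3-type transcripts instead end in a last exon of their own farther along the same intron (chr13:93366243-93367134, 892 nt, 141 cytosines). The coding part of exons 6 to 10 of the long form holds 128 cytosines, and its 3′ UTR (chr13:93402230-93405129) holds 484. The point where the short and long forms part is shown first, chr13:93356065-93356094 on the plus strand, with the bases that only the Homer1a-type transcript keeps in capitals; its stop codon lies at chr13:93356111-93356113.
End of exon 5 and start of the Homer1a-type end: gccatttccacatagGTACACATTCAATTC

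The methylation results turn on 3 cytosines of exon 1, numbered from its first base, and all 3 lie in the 5′ UTR. They are printed with 10 nt on either side, 5′ to 3′ on the plus strand, with the measured cytosine in capitals. Base 85 (chr13:93303831-93303851) lies 1457 nt before the start codon, base 179 (chr13:93303925-93303945) 1363 nt and base 435 (chr13:93304181-93304201) 1107 nt. Base 197 (chr13:93303943-93303963) is shown beside them because it had the next highest mean level among Homer1 cytosines read in every library, at 0.299 to 1.19%.
Base 85: ccagagccagCgcaggagccg
Base 179: tcatcccctcCggtgttgttc
Base 435: gaggcagcgaCgggcgccagg
Base 197: ttcctcagcgCcccggtccga
The annotated transcript that starts farthest upstream in exon 1 (Homer1-207) begins at chr13:93303757, whereas the Homer1a-type transcript begins at chr13:93304495 and the long form used here at chr13:93304799. Bases 85, 179 and 435 thus lie upstream of the annotated starts of both. Of the Ania-3-type transcripts, Homer1-205 begins at chr13:93305184 and Homer1-206 at chr13:93304102, so the span of the latter holds base 435.

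The 6 lists held between 1559828 and 2374392 cytosines with a median coverage of 324 to 480 reads. A list holds only cytosines with a coverage of at least 10 and at least 1 unconverted read, so a cytosine that is not listed may be fully converted or too shallow. Background was low and similar: at cytosines with a coverage of at least 5000 and a level under 1%, 0.0838 to 0.115% of reads stayed unconverted, with 6 h replicate 1 the highest. As a check of the depolarization, all 5 measured of 14 activity-induced genes rose at 2 h, where 19.0% of 7097 genes did. Fos, an immediate early transcription factor, had a scaled coverage of 33.4 and 40.1 at 0 h, 5430 and 5154 at 2 h, then 3037 and 2770 at 6 h.

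Few Homer1 cytosines were listed at rest and many after KCl. The number listed was 184 and 210 at 0 h, 679 and 531 at 2 h, then 625 and 509 at 6 h, so every KCl library listed more than both controls. Only 7 cytosines were listed in all 6 libraries, 6 of them in the 5′ part and 1 in the coding exons of the long form, while 633 were listed in a single library. In the 5′ part the number listed was 118 and 82 at 0 h, 246 and 198 at 2 h, then 229 and 214 at 6 h. At the Homer1a-type end the lists held 0 and 28 at 0 h, 180 and 98 at 2 h, then 150 and 134 at 6 h. The last exon of the Ania-3 type had none at 0 h, 79 and 27 at 2 h, then 54 and 12 at 6 h. The coding exons of the long form had 51 and 48 at 0 h, 70 and 55 at 2 h, then 56 and 72 at 6 h, so the controls were lowest by a small margin. In the 3′ UTR of the long form the lists held 15 and 52 cytosines at 0 h, 40 and 117 at 2 h, then 135 and 77 at 6 h. Both 6 h libraries lay above the controls there, and the 2 h libraries overlapped with both other groups. The library with 135, 6 h replicate 1, also listed the most cytosines over the whole series (2374392). Because listing depends on depth and on conversion, coverage was compared next.

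**Figure D1:**
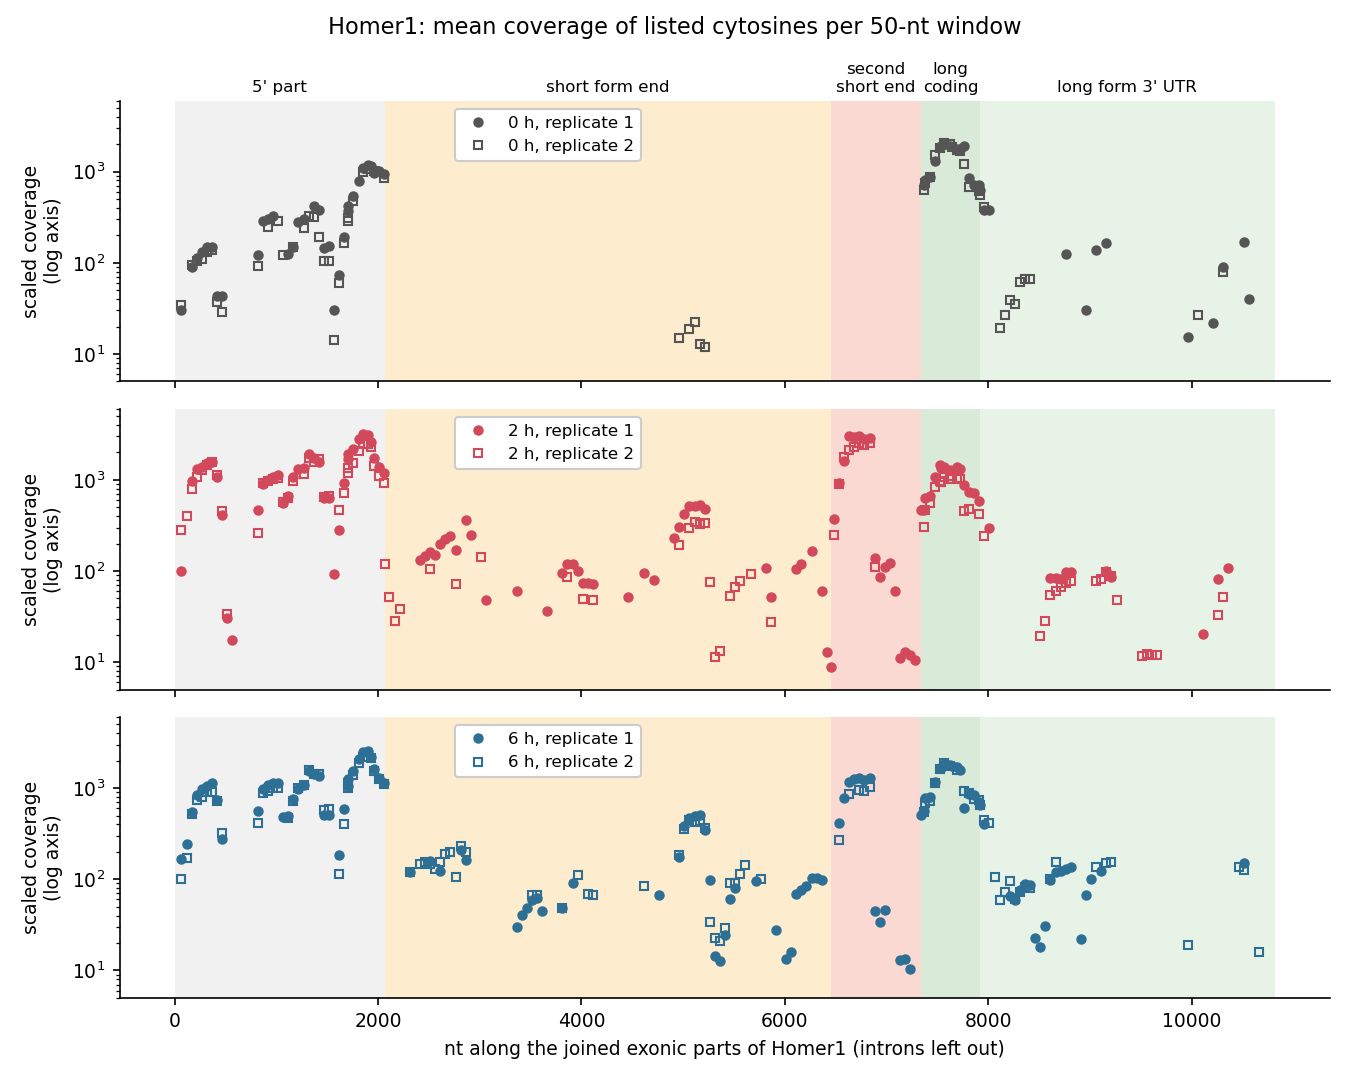
Scaled coverage of Homer1 (log axis) per 50-nt window along its joined exonic parts, introns left out, with 1 row of points per time point and 1 marker per replicate. At 0 h the points of the 5′ part climb from left to right and the short-form ends hold few points or none; at 2 h and 6 h that climb is shallower and both short-form ends carry points. The short form is the Homer1a type and the second short form the Ania-3 type.

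Coverage was averaged over the listed cytosines of each 50-nt window and scaled between libraries (trimmed mean of M-values, TMM); the values below are scaled reads per cytosine. Over the 26 windows of the 5′ part listed in all 6 libraries, scaled coverage was 371 and 324 at 0 h, 1367 and 1188 at 2 h, then 1062 and 977 at 6 h. The groups did not overlap, and the means were 348 ± 33.0, 1278 ± 127 and 1019 ± 59.7 (SD, n = 2 each). The 5′ part rose 3.68-fold at 2 h (log2 change 1.88, SE 0.12, adjusted p = 8.79e-05, edgeR's quasi-likelihood test with Benjamini-Hochberg adjustment), where 26.0% of 19525 exonic parts passed in either direction. At 6 h it was still 2.93-fold above 0 h (log2 change 1.55, SE 0.12, edgeR adjusted p = 5.46e-05), with 57.7% of parts passing. With the median in place of the mean coverage of the windows, the log2 changes were larger, 2.92 at 2 h and 2.55 at 6 h. Between 2 h and 6 h the log2 change was -0.33 (SE 0.11, edgeR adjusted p = 0.0373), with 49.7% of parts passing. Over the 6 cytosines listed in every library, scaled coverage was 282 and 254, then 953 and 772, then 691 and 618. There the 5′ part rose by a log2 of 1.68 (SE 0.14, edgeR adjusted p = 0.000808) at 2 h and 1.28 (SE 0.14, edgeR adjusted p = 0.000628) at 6 h, beside 17.0% and 50.2% of 12162 parts. The later difference, 6 h against 2 h, was -0.40 (SE 0.13) and missed the threshold (edgeR adjusted p = 0.0538, beside 35.2% of parts), so this call differs between the position sets. In windows it was also lost without 2 h replicate 1 (adjusted p = 0.134), 6 h replicate 1 (adjusted p = 0.0711) or 6 h replicate 2 (adjusted p = 0.200).

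The coding exons of the long form moved the other way at 2 h. Over 11 windows their scaled coverage was 1349 and 1264 at 0 h, 960 and 693 at 2 h, then 1132 and 1133 at 6 h. The groups again did not overlap, with the 2 h libraries lowest and the 6 h libraries between them and the controls. Coverage fell to 0.633 of its level at 2 h (log2 change -0.66, SE 0.14, edgeR adjusted p = 0.0145). At 6 h the log2 change from 0 h was -0.21 (SE 0.14, edgeR adjusted p = 0.242), and from 2 h to 6 h it was 0.45 (SE 0.14, edgeR adjusted p = 0.0326). The fall at 2 h missed the threshold without 0 h replicate 1 (adjusted p = 0.0931) or replicate 2 (adjusted p = 0.0668), and the recovery did so without any of the libraries other than 2 h replicate 1.

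**Figure D2:**
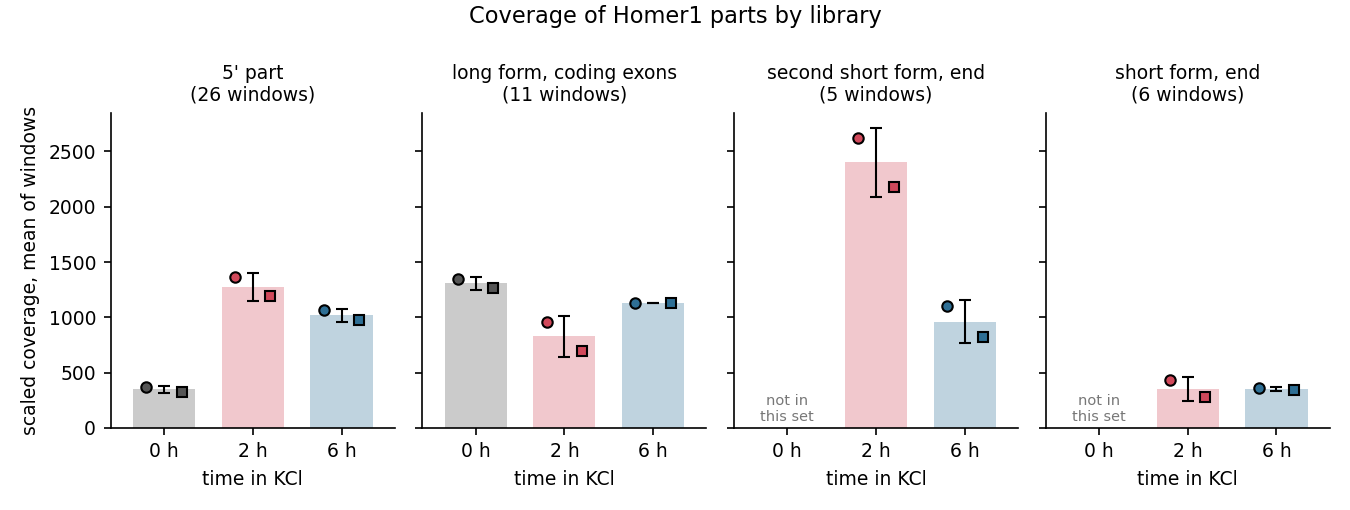
Scaled coverage (linear axis from 0) of 4 parts of Homer1 at 0, 2 and 6 h in KCl, the short form being the Homer1a type and the second short form the Ania-3 type. Points are libraries, bars are means and error bars are the SD of the 2 replicates; the short-form ends have no 0 h bars because they had no window listed in every library at 0 h. The 5′ part goes from 348 to 1278 and 1019, the coding exons of the long form from 1307 to 827 and 1132, and the Ania-3-type end from 2402 at 2 h to 960 at 6 h.

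The ratio of the 5′ part to the coding exons of the long form puts both movements on one scale within each library. It stood at 0.275 and 0.257 in the controls, 1.42 and 1.71 at 2 h, then 0.938 and 0.863 at 6 h, without overlap. The test of a part against the rest of its gene (edgeR's diffSpliceDGE with Benjamini-Hochberg adjustment) gave a relative log2 change of 1.06 for the 5′ part at 2 h (adjusted p = 0.000251) and of 0.81 at 6 h (adjusted p = 0.000542). Such calls were rare, at 0.187% and 0.965% of 17620 parts. With median coverage the relative changes of the 5′ part were 1.70 and 1.51. The coding exons of the long form had a relative log2 change of -0.70 at 2 h (diffSpliceDGE adjusted p = 0.00611) and of -0.41 at 6 h (adjusted p = 0.0743). The call at 2 h was lost without 0 h replicate 1 (adjusted p = 0.227) or 2 (adjusted p = 0.287) and without 6 h replicate 1 (adjusted p = 0.0570) or 2 (adjusted p = 0.0665). From 2 h to 6 h neither part passed (relative log2 changes of -0.25, diffSpliceDGE adjusted p = 1, and 0.29, adjusted p = 0.731), where 0.465% of parts did. With 2 parts measured in all libraries, a rise of one relative to the gene is also a fall of the other. Without 0 h replicate 2, the calls of the 5′ part became adjusted p = 0.0617 at 2 h and 0.0515 at 6 h.

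The change was graded along the 5′ part, exon by exon. Exon 1 had a scaled coverage of 170 and 133 at 0 h, 1050 and 999 at 2 h, then 814 and 761 at 6 h. Exon 4 had 1132 and 1029, then 3118 and 2487, then 2500 and 2188. Exon 5 had 1020 and 980, then 1843 and 1554, then 1648 and 1599. The controls lay below every KCl library in each of these exons, but by different amounts. The ratio of the 2 h mean to the 0 h mean fell from exon to exon, being 6.75, 4.61, 3.99, 2.59 and 1.70 for exons 1 to 5. The ratio of 6 h to 0 h was 5.19, 2.91, 3.06, 2.17 and 1.62. Past exon 5 it dropped below 1 at once: exons 6 to 10 had ratios of 0.575 to 0.687 at 2 h and of 0.781 to 0.931 at 6 h. Exon 8, for example, had 2002 and 2027 at 0 h, 1346 and 1047 at 2 h, then 1829 and 1800 at 6 h. These exon values are a description with no test of their own. At 0 h coverage in exon 1 was far below that in exon 8, although the long form holds the downstream end of exon 1 as well as exon 8. Exon 1 has a GC content of 63.3% and exons 2 to 5 of 40.2 to 49.5%, and the part of base composition, transcript start and fragment position in these levels was not tested.

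**Figure D3:**
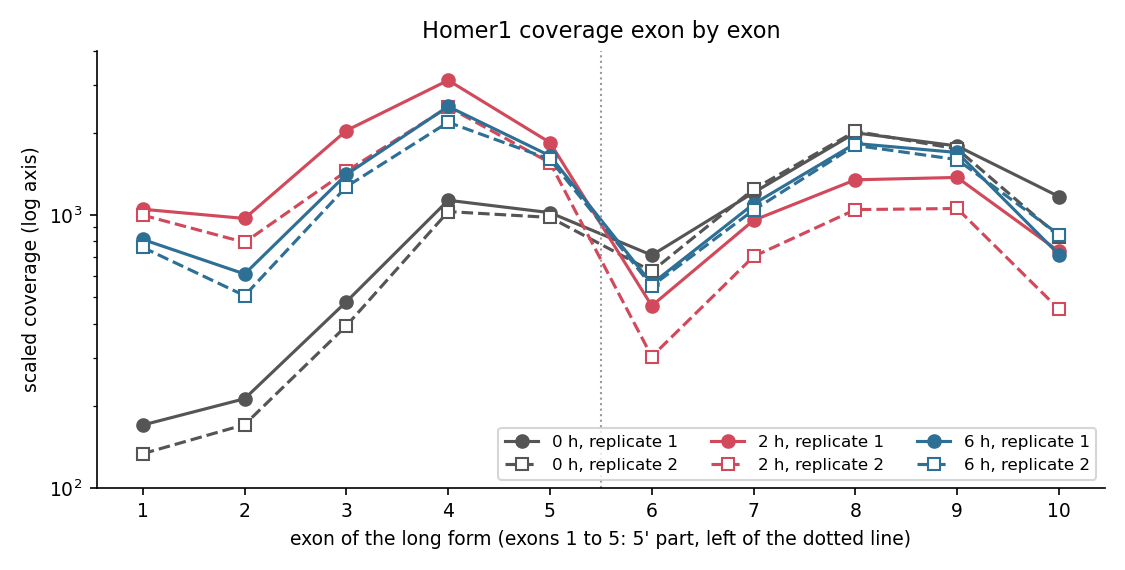
Scaled coverage (log axis) of exons 1 to 10 of the long form, with 1 line per library coloured by time in KCl. Left of the dotted line, in exons 1 to 5, the 0 h lines lie below the others with a gap that narrows from 6.75-fold to 1.70-fold at 2 h; right of it the 2 h lines lie lowest in exons 6 to 9, and in exon 10 a 6 h line falls between them.

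The ends that belong to the short forms were listed mainly after KCl. The Homer1a-type end was not listed in 0 h replicate 1, and the 28 cytosines listed in replicate 2 had a coverage of 10 to 20. After KCl its highest coverage was 655 and 368 at 2 h against 484 and 472 at 6 h. The cytosine with the highest coverage lay between 3000 and 3500 nt past exon 5 in all 4 KCl libraries, and the 28 control cytosines lay between 2500 and 3500 nt past it. Over the 6 windows listed in all KCl libraries, scaled coverage was 431 and 277 at 2 h against 364 and 339 at 6 h. The 6 h libraries lay between the 2 h libraries, and the log2 change of -0.02 had an SE of 0.21 (edgeR adjusted p = 0.953, beside 45.9% of 24254 parts passing), which does not separate it from 0. Its sign hung on the 2 h library kept, with 0.34 without 2 h replicate 1 and -0.30 without 2 h replicate 2. The 5′ part carried more reads per cytosine than this end, whose scaled coverage was 0.304 and 0.224 of it at 2 h against 0.326 and 0.329 at 6 h.

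Over windows listed in all KCl libraries, the Ania-3-type end had the highest mean coverage of the Homer1 parts at 2 h. It fell by 6 h. Exon 4 taken by itself was higher at 2 h, with 3118 and 2487 against 2543 and 2108 on the scale of the exon values. Over 5 windows the scaled coverage of the Ania-3-type end was 2622 and 2183 at 2 h against 1098 and 822 at 6 h, without overlap. It fell 2.50-fold (log2 change -1.32, SE 0.16, edgeR adjusted p = 0.0025). In the same fit the 5′ part changed by -0.31 (edgeR adjusted p = 0.0563) and the coding exons of the long form by 0.43 (adjusted p = 0.0673), neither past the threshold. Relative to the coding exons of the long form, this end stood at 2.65 and 3.04 at 2 h and at 0.954 and 0.715 at 6 h. Nearly all reads fell in the first 400 nt of the exon, where the median coverage was 3288 and 2337.5 at 2 h against 1212 and 1059.5 at 6 h. Beyond 400 nt the median was 16 in 2 h replicate 1 and 36 in 6 h replicate 1, 2 h replicate 2 listed 1 cytosine at a coverage of 105 and 6 h replicate 2 listed none. No cytosine of this exon was listed at 0 h, and since a cytosine without an unconverted read is left out of the lists, no coverage can be given for it there.

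Methylation was concentrated at the 3 cytosines of the 5′ UTR printed above. A site was counted in a library where its coverage reached 20, its level 10% and its number of unconverted reads 6. By this rule 0 and 0 Homer1 sites passed at 0 h, 2 and 2 at 2 h, then 3 and 2 at 6 h, and no cytosine outside bases 85, 179 and 435 passed in any library. Both sites of 2 h were bases 85 and 179, and 6 h replicate 1 added base 435. The number of reads behind each level differed widely, since coverage of exon 1 was low at 0 h.

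At base 179 the level was 3.85% (4 of 104 reads, 95% Wilson interval 1.51 to 9.47%) and 8.54% (7 of 82, 4.20 to 16.6%) at 0 h. It was 16.0% (195 of 1216, 14.1 to 18.2%) and 18.9% (155 of 818, 16.4 to 21.8%) at 2 h. It was 17.1% (108 of 631, 14.4 to 20.3%) and 13.0% (73 of 563, 10.4 to 16.0%) at 6 h. Both controls lay below all KCl libraries, and 2 h and 6 h overlapped. The intervals cover counting error only, since PCR copies are not independent molecules. The controls had a mean of 6.19 ± 3.32%, against 17.5 ± 2.06% after 2 h and 15.0 ± 2.93% after 6 h (SD, n = 2 each). A site entered the test only if it passed the rule in both replicates of a compared time point, and base 179 entered against 0 h through the KCl libraries alone, which favours a difference in that direction, so the p-values against 0 h are no independent support for it. On summed reads, Fisher's exact test gave an adjusted p of 0.00032 for the difference of 11.3 percentage points at 2 h, where 10.6% of 2527 sites of the series passed. It gave 0.00943 for the difference of 8.85 points at 6 h, where 6.91% of 2661 sites passed. Between 2 h and 6 h the difference was -2.45 points (Fisher's exact test, adjusted p = 0.464), where 12% of 2772 sites passed. Summed reads leave out the spread between cultures: limma on the log-odds of each library gave an adjusted p of 0.419 at 2 h and 0.998 at 6 h, and it called 0 of the sites in any comparison (215, 74 and 153 at an unadjusted p under 0.05). Without 0 h replicate 1 the difference was 8.96 points at 2 h (Fisher's exact test, adjusted p = 0.319) and 6.50 points at 6 h (adjusted p = 0.524), and without 6 h replicate 1 it was 6.77 points at 6 h (adjusted p = 0.0866).

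Base 85 had a level of 3.13% (1 of 32 reads) and 16.7% (5 of 30) at 0 h, 14.0% (23 of 164) and 12.5% (32 of 256) at 2 h, then 19.4% (31 of 160) and 12.1% (13 of 107) at 6 h. The time points overlapped, and the intervals at 0 h ran from 0.554 to 15.7% and from 7.34 to 33.6%. Differences were 3.37 points at 2 h (Fisher's exact test, adjusted p = 1), 5.87 at 6 h (adjusted p = 0.765) and 2.50 between them (adjusted p = 0.640), so that no difference was detectable at this depth. Base 435 was not listed in 0 h replicate 1 and had 6.25% (2 of 32 reads) in replicate 2. Its level was 8.05% (47 of 584) and 6.47% (33 of 510) at 2 h and 12.1% (43 of 354) and 9.37% (34 of 363) at 6 h. The 6 h values lay above the 2 h values, by 3.50 points, but base 435 did not enter the main test, and among all cytosines with a level of at least 1% its adjusted p was 0.146 (Fisher's exact test). Without 6 h replicate 2 it entered the test through 6 h replicate 1 alone, the library where its level was highest, and the difference was then 4.89 points (Fisher's exact test, adjusted p = 0.0250). In that run 876 sites passed upward and 139 downward of 3671, and since the library that let base 435 in was also the whole 6 h group, the value supports nothing. Base 85, like base 179, entered against 0 h through the KCl libraries alone.

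**Figure D4:**
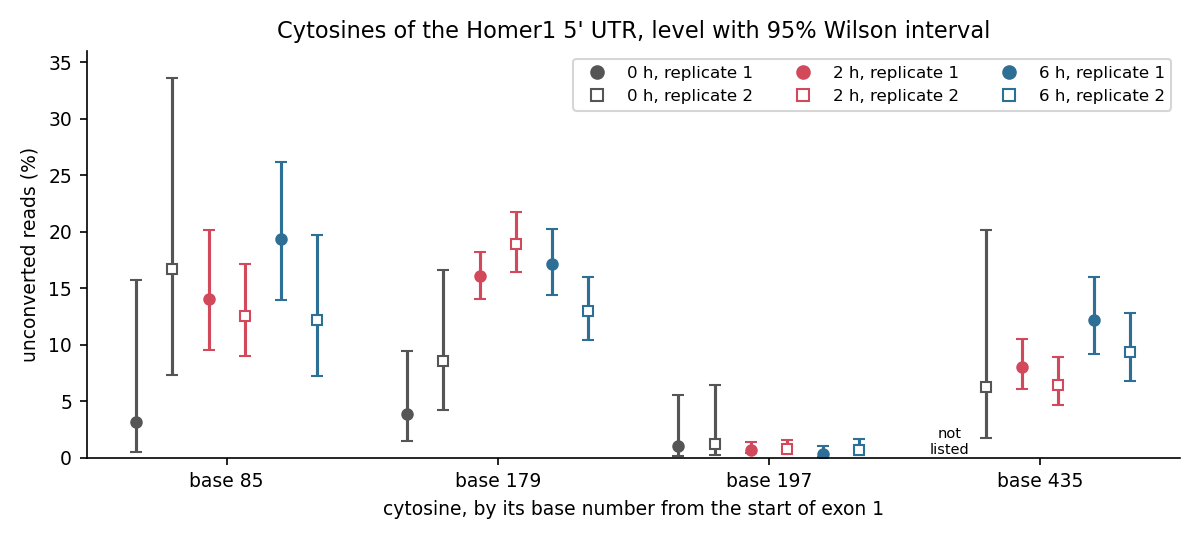
Level (percentage of unconverted reads) of 4 cytosines of the Homer1 5′ UTR in each library, with 95% Wilson intervals; base numbers count from the start of exon 1. At base 179 both 0 h points, 3.85 and 8.54%, lie below the KCl points, while at base 85 the wide 0 h intervals overlap all others and base 197 stays at or below 1.19%.

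In the KCl libraries the 3 sites lay above all of their listed neighbours. Within 50 nt of them lay 35, 39 and 32 other cytosines, and the highest level listed for any of these after KCl was 0.314 to 2.43%. At 0 h few neighbours were listed, none near base 85, and their highest levels were 3.45 and 2.30% near base 179 and 4.35 and 8.0% near base 435. The last of these exceeded the 6.25% of base 435 in the same library. Among all other exon 1 cytosines with a coverage of at least 100, 19 to 150 per library, the highest level was 0.739 to 2.43% and the median 0.129 to 0.8%. Outside exon 1, cytosines with a level of 10% or more were shallow. Counting the whole gene, 0 to 31 cytosines per library reached that level without passing the rule, with a coverage of 10 to 30 and at most 5 unconverted reads.

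**Figure D5:**
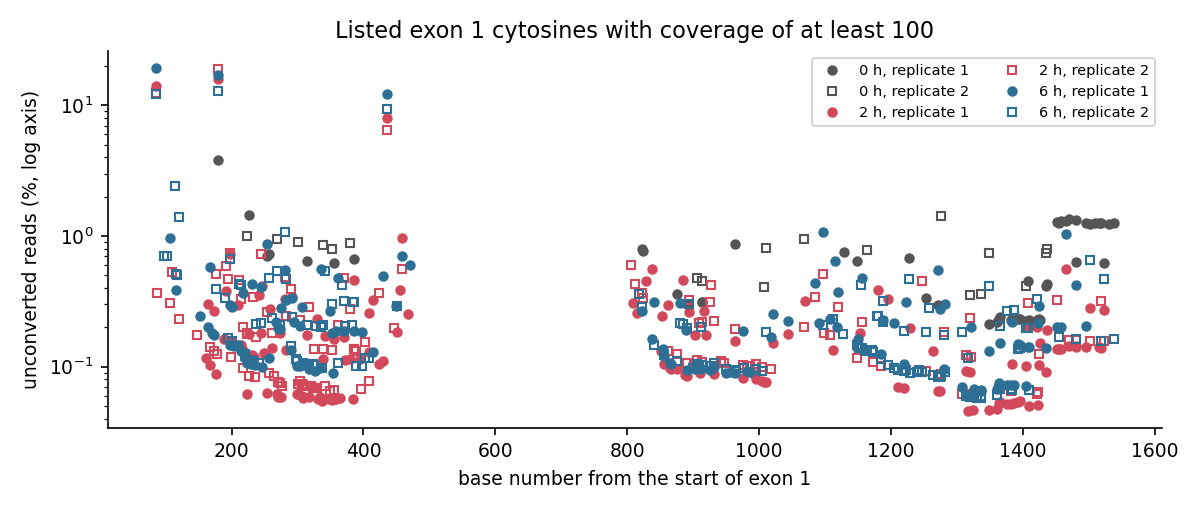
Level (log axis) of every listed exon 1 cytosine with a coverage of at least 100, by base number from the start of exon 1, with 1 marker style per library. Bases 85, 179 and 435 lie above a band that otherwise stays at or below 2.43%.

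In sequence the 3 sites shared a guanine right after the cytosine and 3, 3 and 4 guanines in the next 5 bases. At least 3 guanines in those 5 bases followed 33.4% of the 968 tested sites of nuclear genes and 10.1% of 196377 cytosines with a level under 1% in all 6 libraries. A guanine right after the cytosine followed 21.5% and 11.7% of them. With RNAfold at 70 °C on exon 1 alone, where a paired cytosine can resist conversion, the pairing probability was 0.488 for base 85, 0.302 for base 179 and 0.0421 for base 435. The median over the 467 cytosines of exon 1 was 0.653 (quartiles 0.347 and 0.897). All 3 sites were thus below the median, with 36.2%, 21.4% and 2.78% of exon 1 cytosines lower still.

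Apart from these sites the unconverted share of Homer1 reads differed between parts. Here an unlisted cytosine in a window with listed ones counted as fully converted, at the mean coverage of those. In the 5′ part without the 3 sites the values were 0.137 and 0.122% in the controls, 0.0790 and 0.0809% at 2 h, then 0.128 and 0.0867% at 6 h. In the coding exons of the long form it was 0.0554 and 0.0682%, then 0.0965 and 0.107%, then 0.0653 and 0.0956%. At the Ania-3-type end it was 0.0927 and 0.0400% at 2 h against 0.164 and 0.0444% at 6 h. The shallower ends had higher shares, where a window entered only if a cytosine of it was listed. The Homer1a-type end had 3.75% in 0 h replicate 2, from 28 unconverted reads at 28 listed cytosines and an estimated summed coverage of 748. After KCl it had 0.329 to 0.670%. The 3′ UTR of the long form had 0.153 and 0.728%, then 0.371 and 1.17%, then 1.49 and 0.402%, with overlap between the time points. Over the 6 cytosines of the 5′ part listed in all libraries, base 179 among them, limma on the log-odds gave changes of 2.20 (adjusted p = 0.743), 1.81 (adjusted p = 0.504) and -0.39 (adjusted p = 0.846) for 2 h against 0 h, 6 h against 0 h and 6 h against 2 h. The share of parts passing was 0.0247%, 0.0247% and 0.0%, the last with 1074 parts at an unadjusted p under 0.05. Without the cytosines that reach 10%, both changes from 0 h turned to -0.35 and -0.38.

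Taken as a whole gene, Homer1 rose after KCl, and its coverage is an average over parts that moved in opposite directions at 2 h. Of the 7 cytosines listed in all libraries, 6 lay in the 5′ part and 1 in the coding exons of the long form. Over these 7 the scaled coverage of the gene was 485 and 456 at 0 h, 1015 and 799 at 2 h, then 813 and 747 at 6 h. The log2 change was 0.95 at 2 h (SE 0.13, edgeR adjusted p = 0.00405) and 0.73 at 6 h (SE 0.13, edgeR adjusted p = 0.00338), where 28.2% and 62.2% of 2601 genes passed. With the median in place of the mean coverage these were 2.81 and 2.20, and with each library's own cytosines 0.69 (edgeR adjusted p = 0.142) and 0.47 (adjusted p = 0.185), which ended both calls. Between 2 h and 6 h it was -0.22 (SE 0.12, edgeR adjusted p = 0.174), where 52.4% of genes passed. Among the 5 genes with the most similar profile over the 6 libraries, by Euclidean distance among 1603 candidates, were Ube2h (0.230), Luc7l3 (0.257), Wac (0.278) and Sqle (0.299). Their log2 changes at 2 h ran from 0.73 for Sqle, squalene epoxidase of cholesterol synthesis, to 0.87 for Luc7l3. From 2 h to 6 h the log2 changes of these genes ran from -0.12 to -0.09.

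The proteins that Homer binds, and its paralogs, showed smaller changes of mixed direction. Of 25 such genes 18 were measured in windows. At 2 h 4 passed upward and 1 downward, where 19.0% and 21.8% of 7097 genes did. The 4 that rose were Shank3, a postsynaptic scaffold (log2 change 0.35, edgeR adjusted p = 0.0192), Trpc1, a cation channel (0.35), Dlgap4, a scaffold of the PSD-95 complex (0.34), and Cdc42, a small GTPase (0.39), and Gnaq, a G protein subunit, fell by 0.21. The list's median was 0.11, beside -0.01 over all genes. At 6 h against 0 h 5 passed upward and 7 downward, where 34.3% and 33.6% of genes did, and the median was -0.10 beside 0.02. At 6 h against 2 h 1 passed upward and 7 downward, where 33.0% and 31.7% did, and the median was -0.15 beside 0.00.

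The largest change among the measured partners came at 6 h, in Itpr1. Itpr1, the inositol trisphosphate receptor that Homer ties to metabotropic receptors, had a scaled coverage of 459 and 424 at 0 h, 505 and 494 at 2 h, then 129 and 121 at 6 h. Its log2 change from 0 h to 6 h was -1.83 (edgeR adjusted p = 2.24e-05). Grm5, a metabotropic glutamate receptor, had a log2 change of -0.48 that missed the threshold in windows (edgeR adjusted p = 0.0569), but over cytosines listed in all libraries it was -0.58 and passed (edgeR adjusted p = 0.0429). The paralogs parted at 6 h. Homer2 went from 1051 and 966 in the controls to 654 and 657 at 6 h, and fell by 0.62 on the log2 scale. Homer3 went from 232 and 272 to 444 in both libraries of 6 h, and rose by 0.82. Shank1 and Dlgap1 fell by 0.50 and 0.49, Dnm3 by 0.30 and Agap2 by 0.20, whereas Shank3 (0.39), Trpc1 (0.42), Cdc42 (0.43) and Dlgap4 (0.19) rose.

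These counts depend on how the libraries are scaled. Scaling to the summed coverage of nuclear genes lowered all log2 changes of the gene test by 0.16 at 2 h and 0.13 at 6 h and called 697 genes higher and 2710 lower at 2 h, where TMM called 1345 and 1547. At 6 h it called 1884 higher and 2981 lower, where TMM called 2431 and 2386. Under it 2 partners passed upward and 4 downward at 2 h (Dlgap4 and Cdc42 upward), and 4 and 11 at 6 h. No partner called with TMM changed sign under it.

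The markers of the labelled cell type were present. All 10 neuronal markers were measured, with a summed scaled coverage of 39938 to 39949 at 0 h, then 36074 to 37120 (2 h) and 38085 to 39007 (6 h). Against 0 h, 2 of them passed upward at 2 h and 1 downward, where 19.0% and 21.8% of all genes did. At 6 h 3 passed upward and 2 downward, where 34.3% and 33.6% did. Among them Tubb3 fell at 2 h and 6 h, and Gad1 rose at both. Of the astrocyte markers 4 of 5 were measured, with sums of 4934 to 4962, 4598 to 4946 and 3790 to 4015, and 3 of them, Gfap, Slc1a3 and Aldh1l1, fell at 6 h, where 33.6% of all genes did, Aldh1l1 also at 2 h. Of the oligodendrocyte lineage 3 of 5 were measured (sums of 2937 to 3113, 2220 to 2346 and 3304 to 3368). Of these 3, 2 fell at 2 h, and at 6 h 2 rose and 1 fell, beside the same shares of all genes. Of the microglial markers only Cx3cr1 was measured (414 to 415, 289 to 303 and 236 to 237). It passed downward at 2 h and 6 h, and Csf1r, P2ry12 and C1qa were listed in no library. Of the endothelial markers none was measured, and of the progenitor markers only Mki67 was (244 to 294, 213 to 448 and 236 to 257). The part of other cell types in the Homer1 changes was not tested.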

How the data were processed

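RNA BS-seq was made by the authors from poly(A) RNA of 6 mouse cortical neuron cultures, with an unmethylated spike-in and stranded libraries. Per the study's methods, reads were trimmed with Trim Galore, aligned to GRCm38 with meRanRh of meRanTK 1.2.1, and called with meRanCall. The deposited lists give whole-number counts per position (coverage and unconverted reads) and the level as a fraction, rounded by the authors, with replicates not pooled. They hold positions with a coverage of at least 10 and at least 1 unconverted read. The study's methods exclude reads with many unconverted cytosines. Whether this was done before the deposited lists were written is not given in the sources used here. Levels were recomputed from the counts.

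Cytosines were placed in exonic parts by the GENCODE M21 annotation. Mean coverage per part was tested with edgeR 4.0.16 (TMM, quasi-likelihood, R 4.3.3) over all parts with at least 3 cytosines, or genes with at least 5, listed in all 6 libraries. Since that left 7 Homer1 cytosines, 50-nt windows listed in all libraries, or in those of 2 h and 6 h, were added after seeing the data. Parts were compared with their gene by diffSpliceDGE, unconverted shares by limma 3.58.1 on log2 odds with a pseudocount of 0.5, and sites by two-sided Fisher's exact tests on summed reads (coverage of at least 10 in all compared libraries). The study's methods name Fisher's exact test and that minimum, but they also filter sites in ways not applied here, and summing was chosen here. Adjusted p-values are Benjamini-Hochberg over the whole table, with a threshold of 0.05. The p-values of edgeR, DESeq2 and limma measure the spread between 2 cultures per group, and those of Fisher's exact test counting error alone. Other tools were DESeq2 1.42.0, ViennaRNA 2.7.2 (70 °C, base pair span of 150 nt) and scipy 1.17.1. Tests were checked on simulated data. Coverage summed over the listed cytosines was 1637706778 to 2352246636 per library, where a read counts once for each listed cytosine it spans.

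The sites named were all Homer1 cytosines that reached a coverage of 20, a level of 10% and 6 unconverted reads in any library, and the 3 with the highest mean level among those with a coverage of at least 20 in every library. Genes of like profile were the 5 nearest with at least 20 such cytosines and a mean coverage of at least 100. Some of the genes these rules and lists hold are not reported here by name. The part, its members and the lists of binding partners, activity-induced genes and cell type markers were chosen with earlier results of these data known. Alternatives were other scalings, tests, position sets and minimums, a replicate block, and leaving out each library.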

Additional observations from a re-analysis of the deposited data

Results flagged for a closer look

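The comparisons of coverage used no intronic cytosines, and those listed for Homer1 lay in 1 stretch. In 2 h replicate 1, 64 cytosines were listed between the annotated end of the Homer1a-type transcript and the last exon of the Ania-3 type, from 5 to 3271 nt past that end, with a median coverage of 15 and a highest of 176. In 2 h replicate 2, 36 were listed there, from 1518 to 1777 nt past it, with a median coverage of 28.5 and a highest of 35. No intronic cytosine was listed in either 0 h library or in 6 h replicate 2, and 6 h replicate 1 listed 1 at a coverage of 34.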

How the results depend on the processing

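Over 29 results, 142 of 168 alternatives kept the direction and the side of the threshold, 7 lost a call, 8 gained one and 11 turned the direction, and leaving out 1 library at a time kept 128 of 158. For the 5′ part over cytosines listed in all libraries, the difference of 6 h from 2 h passed by DESeq2's Wald test (-0.39, adjusted p = 0.0405) and with median coverage (-0.62, adjusted p = 0.0215). In windows it missed the threshold with scaling to summed nuclear coverage (-0.30, adjusted p = 0.0557) and with each library's own cytosines (-0.26, adjusted p = 0.317). The whole-gene changes missed it with own cytosines (0.69 at 2 h, adjusted p = 0.142, and 0.47 at 6 h, adjusted p = 0.185), and the gene's difference of 6 h from 2 h passed with median coverage (-0.61, adjusted p = 0.0145). The recovery of the long form's coding exons was 0.29 (adjusted p = 0.253) with median coverage. Their relative change at 6 h passed with limma's diffSplice (-1.76, adjusted p = 0.00064), at least 10 windows (-0.41, adjusted p = 0.0430) and median coverage (-0.62, adjusted p = 0.0357). The Homer1a-type end turned to 0.032 with nuclear scaling and 0.024 with limma-trend. The unconverted share of the 5′ part turned to -0.35, -1.38 and -1.03 at 2 h and to -0.38, -1.25 and -0.53 at 6 h without cytosines reaching 10%, with own cytosines and with a coverage of at least 100; from 2 h to 6 h it turned to 0.13 and 0.50 with the last pair. Base 179 lost its calls with limma on the log-odds (1.67 and 1.40). The cause of these differences was not tested. The planned test of parts relative to their gene, with its alternatives other than own cytosines, and the alternative of at least 10 cytosines gave no Homer1 value in the planned position set, since too few of its cytosines were listed in all libraries.

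Replicate numbers are not stated to mark a shared culture, and deviations of like-numbered libraries correlated at 0.365, -0.186 and -0.153 over 7097 genes, so they were not treated as pairing. With the replicate block, the 5′ part's difference of 6 h from 2 h was -0.39 (adjusted p = 0.0315), the long form's relative change at 6 h was -0.40 (adjusted p = 0.0369) and the Homer1a-type end turned to 0.016, and no other Homer1 call changed.

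With each library left out in turn, the gene ranged from 0.74 to 1.10, 0.67 to 0.79 and -0.39 to -0.036 (2 h and 6 h against 0 h, then 6 h against 2 h), and the 5′ part over common cytosines from 1.52 to 1.82, 1.19 to 1.36 and -0.56 to -0.26. In windows the 5′ part ranged from 1.77 to 1.98, 1.46 to 1.65 and -0.42 to -0.22, and the long form's coding exons from -0.92 to -0.45, -0.25 to -0.16 and 0.24 to 0.71. Relative to the gene, the 5′ part ranged from 1.03 to 1.10, 0.79 to 0.84 and -0.29 to -0.22, and the coding exons from -0.76 to -0.65, -0.43 to -0.39 and 0.24 to 0.36. The Ania-3-type end ranged from -1.56 to -1.13 and the Homer1a-type end from -0.30 to 0.34, turning without 2 h replicate 1 (adjusted p = 0.0480) and 6 h replicate 2. The share of the 5′ part ranged from 1.50 to 2.91, 1.11 to 2.52 and -0.75 to -0.04. Base 179 ranged from 8.96 to 13.6, 6.50 to 11.2 and -4.53 to -0.38 points, and base 85 from -3.40 to 10.1, -0.90 to 12.6 and -1.11 to 6.11 points. Depth was low at 0 h for base 85, with 30 and 32 reads, and for base 435, with 32 reads in 1 library.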
